A study of Mus musculus with 12 samples.

Results

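The transcripts of 9 genes of the unfolded protein response, Xbp1, Ddit3, Dnajb9, Herpud1, Hspa5, Hsp90b1, Pdia4, Sdf2l1 and Creld2, were followed in 12 mouse livers. They were found by symbol among the probe sets annotated with 1 gene symbol, and they make up 9 of the 19938 genes measured; 8 of the 9 had 1 such probe set, and for Pdia4 the brighter of its 2 was used. The livers came from male mice on a C57Bl/6 background, 4 in each of 3 groups. S534A LPS livers came from mice homozygous for S534A, a knock-in allele of p65 (Rela), the NF-κB subunit, that puts alanine in the place of a serine, given lipopolysaccharide (LPS) at 1 µg/kg. WT LPS livers came from wild-type C57Bl6/J mice given the same dose, and WT untreated livers from wild-type mice given none. Targeting was done in embryonic stem cells of the PTL1 line, 2 clones of which gave the founders, and 5 backcrosses to C57Bl6/J preceded breeding to homozygosity; the S534A and wild-type mice are not stated to be littermates. The sources used here give neither the age of the mice nor the time after LPS nor the hour at which livers were taken. No untreated livers of S534A mice were among the groups, and therefore an effect of genotype that precedes LPS cannot be told apart from one on its action. Nothing states that the 4 samples of a group were separate animals, so the p-values measure only the spread between these samples.

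Proteins bound for secretion fold in the endoplasmic reticulum (ER), and unfolded protein there is sensed by the membrane proteins IRE1α (encoded by Ern1), PERK (encoded by Eif2ak3) and ATF6. IRE1α removes an intron from Xbp1 mRNA so that it encodes an active transcription factor, PERK phosphorylates the translation factor eIF2α and thereby favours translation of ATF4, and ATF6 is cleaved to release a transcription factor. Together they raise the transcription of ER chaperones, folding enzymes and parts of the machinery that sends misfolded protein to the proteasome. In liver this system serves hepatocytes, which secrete most plasma proteins, including those of the acute phase response to LPS. The arrays reported the total Xbp1 transcript, not its splicing, and nothing on the phosphorylation or cleavage of the sensors.

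All values below are the deposited log2 expression values, on which a difference of 1 is a doubling, and are compared only within a gene. The labelled tissue was checked with 12 hepatocyte marker genes, all measured, whose mean lay between 13.29 and 13.49 on every array. Rela measured 11.20 ± 0.06 in S534A LPS livers, 11.11 ± 0.08 in WT LPS livers and 9.96 ± 0.14 in WT untreated livers (SD, n = 4 each), which reports the transcript and does not check the allele. Exocrine pancreas transcripts were present on 3 arrays: the mean of 18 marker genes was 8.90 on S534A LPS replicate 3, 8.03 on WT LPS replicate 2 and 6.48 on WT LPS replicate 3, against 5.64 to 6.10 on the other arrays, and Cpa1 and Ctrb1, which encode digestive enzymes, had the widest range of that list. The titles of the WT untreated arrays follow another pattern; should they have been hybridised separately, batch and LPS cannot be told apart. They also fall into different states of the circadian clock genes, described below with the genes whose values go with them.

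The promoters of 4 of the 9 genes are shown first, since they carry the sequence by which ATF6 and XBP1 are known to act. RefSeq promoter windows (GRCm38.p6), from 250 bases before to 50 after the annotated start, were available for 9 of the 9 genes. They were searched on both strands for the ER stress response element (ERSE, the box CCAAT, 9 bases of any kind and the box CCACG), the shorter ERSE-II (ATTGG, 1 base of any kind and CCACG), the core of the XBP1 element UPRE (TGACGTGG), the ATF4-CHOP composite element (TGATGNAAT) and the E-box (CACGTG). No matches of different motifs overlapped in these 9 windows. Windows are printed 5′ to 3′ in the direction of transcription, with the ERSE or ERSE-II in capitals, either as spelled above or as its reverse complement. That of Creld2 is from chr15:88819496-88819615 on the + strand, that of Hspa5 from chr2:34771970-34772089 on the + strand, that of Herpud1 from chr8:94386309-94386428 on the + strand, and that of Hsp90b1 from chr10:86705525-86705664 on the - strand.
Creld2: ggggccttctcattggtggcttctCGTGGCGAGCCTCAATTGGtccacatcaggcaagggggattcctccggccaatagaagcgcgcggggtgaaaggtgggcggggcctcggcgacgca
Hspa5: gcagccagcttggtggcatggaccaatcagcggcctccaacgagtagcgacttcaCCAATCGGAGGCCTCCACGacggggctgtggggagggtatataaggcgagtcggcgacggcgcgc
Herpud1: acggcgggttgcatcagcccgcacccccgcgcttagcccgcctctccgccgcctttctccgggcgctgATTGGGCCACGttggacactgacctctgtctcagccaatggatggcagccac
Hsp90b1: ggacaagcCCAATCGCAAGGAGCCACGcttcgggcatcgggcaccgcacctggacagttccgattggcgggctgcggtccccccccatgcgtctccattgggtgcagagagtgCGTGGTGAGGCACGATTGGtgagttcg

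The full ERSE stood in 3 of the 9 windows and in 39 of all 32851 RefSeq promoter windows (0.119%). Hsp90b1 carried 2 copies, at -212 to -194 and -107 to -89 from the start; Hspa5 carried 1 at -65 to -47, and Creld2 1 at -126 to -108. ERSE-II stood in the Herpud1 window alone among the 9, at -52 to -42, and in 12 of all windows (0.0365%). The E-box was found in the Dnajb9 window, at -107 to -102, and in 7.15% of all windows, while the UPRE core and the ATF4-CHOP element, found in 0.676% and 0.965% of all windows, were in none of the 9. The windows of Xbp1, Ddit3, Pdia4 and Sdf2l1 held none of these exact letters. A match describes the sequence; binding was not measured.

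**Figure D1:**
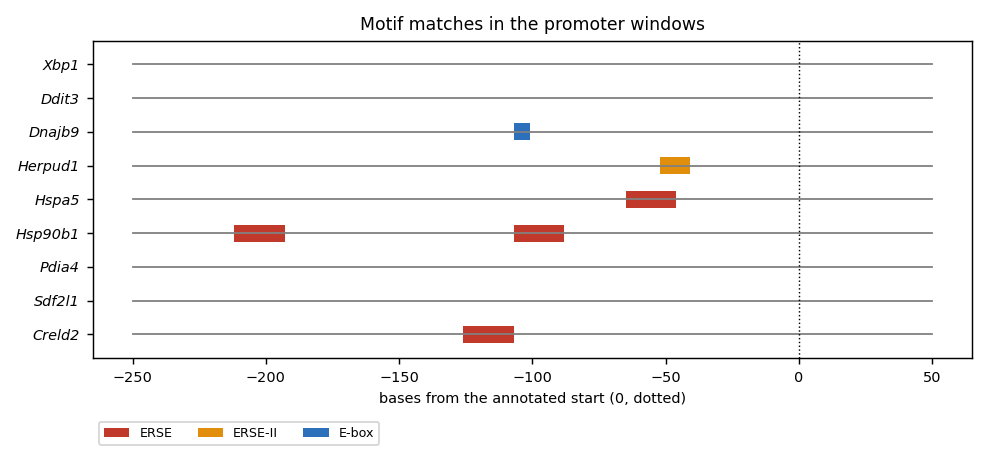
Positions of motif matches in the 9 promoter windows; the x axis is the distance in bases from the annotated start and each grey line is 1 gene's window from 250 bases before to 50 after it. ERSE matches (red) lie in the windows of Hspa5, Hsp90b1 (2 copies) and Creld2, ERSE-II (orange) in that of Herpud1 and the E-box (blue) in that of Dnajb9.

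With LPS present in both genotypes, the comparison of S534A LPS with WT LPS livers asked what the p65 substitution changed, and no gene of the 9 passed the test. Differences ran from -0.36 for Herpud1 to 0.05 for Xbp1, negative in 8 genes and positive in 1, though Ddit3, near 0, turned positive with median centring or quantile normalisation repeated; the median was -0.08 against 0.01 over all genes. By limma with Benjamini-Hochberg adjustment over 19938 genes, 0 of the 9 had an adjusted p under 0.05, where 0.171% of all genes did, and 0 of the 9 had an unadjusted p under 0.05, against 5.76% of all genes. In 0 of the 9 were the groups free of overlap, against 4.43% of all genes. The 95% intervals of the fit over 12 arrays, whose estimate of the spread includes the untreated livers, reached from -0.20 to 0.29 for Xbp1, from -0.22 to 0.22 for Ddit3, from -0.93 to 0.78 for Creld2 and from -0.88 to 0.16 for Herpud1. Fitted on the 8 LPS arrays alone they reached from -0.09 to 0.19 for Xbp1, from -0.24 to 0.24 for Ddit3, from -0.26 to 0.11 for Creld2 and from -0.78 to 0.06 for Herpud1. Without the 3 arrays with pancreas transcripts the count was also 0 of 9, with 0.00502% of all genes called.

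WT LPS against WT untreated livers asked what LPS changed in wild-type liver. Xbp1 rose 1.45-fold and Creld2 2.22-fold, so that 2 of the 9 genes were called, both higher, where 9.34% of all genes were called higher and 25.0% in either direction. All 9 differences were positive, from 0.26 for Hsp90b1 to 1.15 for Creld2, with a median of 0.53 against 0.02 over all genes, and 6 of the 9 had an unadjusted p under 0.05, against 35.5% of all genes. The groups did not overlap for 3 genes, Xbp1, Ddit3 and Herpud1, all higher in WT LPS livers, against 9.78% of all genes higher without overlap. Without the 3 arrays with pancreas transcripts, 1 of the 9 was called, Xbp1 (0.56, adjusted p = 0.0385, limma), with 16.2% of all genes called. Creld2 was at 1.18 there (limma, adjusted p = 0.199). That fit kept only WT LPS replicates 1 and 4, so the loss of pancreas transcripts and the loss of arrays cannot be told apart.

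S534A LPS livers were also set against the WT untreated livers, which the comparison of WT LPS livers shares, so the agreement of both is not independent. Xbp1 rose 1.5-fold and was the 1 gene of 9 called; 11.0% of all genes were called higher and 26.9% in either direction. All 9 differences were positive, from 0.21 for Hsp90b1 to 1.08 for Creld2, with a median of 0.33 against 0.03 over all genes, and 4 of the 9 had an unadjusted p under 0.05, against 36.4% of all genes. Xbp1 and Ddit3 were the 2 genes whose groups did not overlap, against 13.8% of all genes higher without overlap. Xbp1 was also the 1 gene called without the 3 arrays with pancreas transcripts, where 25.1% of all genes were called.

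**Figure D2:**
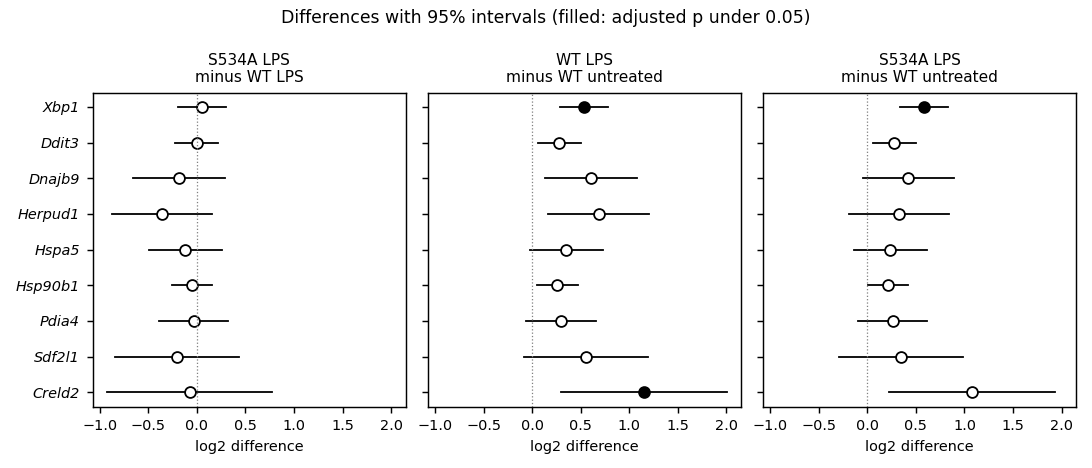
Log2 difference (x axis) of each of the 9 genes with its 95% interval in S534A LPS minus WT LPS, WT LPS minus WT untreated and S534A LPS minus WT untreated livers, 4 arrays a group; filled points have an adjusted p under 0.05. No point is filled on the left, Xbp1 and Creld2 are filled in the middle and Xbp1 on the right, and the Creld2 interval is the widest in each panel.

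Of the transcription factors, Xbp1 encodes the factor that IRE1α activates, which drives chaperone and degradation genes. It measured 12.84, 12.89, 12.81 and 12.78 in S534A LPS livers, 12.71, 12.75, 12.76 and 12.91 in WT LPS livers, and 12.17, 11.89, 12.38 and 12.55 in WT untreated livers. Every LPS array was above every untreated array, and the LPS groups overlapped. The difference was 0.58 ± 0.11 (SE) for S534A LPS and 0.53 ± 0.11 for WT LPS against WT untreated livers (limma, adjusted p = 0.00177 and 0.00378), and 0.05 ± 0.11 between S534A LPS and WT LPS livers (adjusted p = 1.00). Both calls against untreated livers held with each of the 12 arrays left out in turn, with an adjusted p of at most 0.00723 for S534A LPS and 0.0147 for WT LPS (limma).

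Ddit3 encodes CHOP, a transcription factor induced mainly through PERK and ATF4 and known for promoting cell death when ER stress persists. Its values were 7.41, 6.98, 6.95 and 7.03 in S534A LPS livers, 7.24, 6.95, 7.14 and 7.05 in WT LPS livers, and 6.89, 6.81, 6.67 and 6.89 in WT untreated livers. Every LPS array again lay above every untreated array, by a narrow margin, and S534A LPS replicate 1 was the highest. The difference was 0.28 ± 0.10 (SE) for both LPS groups and did not pass the test (limma, adjusted p = 0.0629 for S534A LPS and 0.0646 for WT LPS).

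Dnajb9 encodes ERdj4, an ER co-chaperone that is an XBP1 target and restrains IRE1α. It measured 11.56, 11.59, 11.08 and 10.70 in S534A LPS livers, 11.56, 10.93, 11.59 and 11.58 in WT LPS livers, and 10.89, 10.81, 10.40 and 11.13 in WT untreated livers. Both LPS groups overlapped the untreated one: S534A LPS replicates 3 and 4 lay below replicates 1 and 2, and in WT LPS livers replicate 2 lay below the other three. The differences of 0.42 ± 0.22 (SE) for S534A LPS and 0.61 ± 0.22 for WT LPS against untreated livers did not pass (limma, adjusted p = 0.185 and 0.0601).

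Herpud1 encodes a membrane protein that organises the ER-associated degradation complex. Its values were 12.60, 12.85, 12.10 and 11.93 in S534A LPS livers, 12.84, 12.65, 12.89 and 12.53 in WT LPS livers, and 11.71, 12.47, 11.53 and 12.46 in WT untreated livers. WT LPS arrays were all above the untreated ones, whereas S534A LPS replicates 3 and 4 lay within the untreated range. S534A LPS differed from untreated livers by 0.33 ± 0.24 (SE; limma, adjusted p = 0.362) and WT LPS by 0.68 ± 0.24 (adjusted p = 0.0529). Between S534A LPS and WT LPS livers the difference of -0.36 ± 0.24 was the widest among the 9 genes, with an unadjusted limma p of 0.156 and an adjusted p of 1.00. S534A LPS replicates 3 and 4 were both below replicates 1 and 2 in Dnajb9, Herpud1, Hspa5, Sdf2l1 and Creld2, and narrowly in Xbp1. How many of all genes have this order was not counted. In Hsp90b1, at 12.35, 12.33, 12.38 and 12.39, and Derl3, at 7.82, 8.33, 8.58 and 9.16, replicates 3 and 4 were both above. They were below, too, in Syvn1 and in Eif2ak3, which read 8.96, 9.03, 8.45 and 8.38 on the 4 arrays. Of the lower arrays, replicate 3 carried pancreas transcripts and replicate 4 did not, and G6pc, a gene of glucose release, read 11.42, 12.07, 12.98 and 12.98 on the same 4 arrays; the part of neither in these values was tested.

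Among the chaperones, Hspa5 encodes BiP, the ER Hsp70 that holds the sensors inactive. It measured 12.68, 12.73, 12.48 and 12.41 in S534A LPS livers, 12.75, 12.61, 12.66 and 12.75 in WT LPS livers, and 12.62, 11.89, 12.83 and 12.02 in WT untreated livers. The untreated arrays spanned both LPS groups, with replicates 2 and 4 below every LPS array and replicate 3 above every one. Neither the difference of 0.23 ± 0.17 (SE) for S534A LPS nor that of 0.35 ± 0.17 for WT LPS against untreated livers passed (limma, adjusted p = 0.369 and 0.167).

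Hsp90b1 encodes GRP94, the ER member of the Hsp90 family. In S534A LPS livers it measured 12.35, 12.33, 12.38 and 12.39, in WT LPS livers 12.35, 12.43, 12.41 and 12.46, and in WT untreated livers 12.30, 12.00, 12.42 and 11.90. LPS livers kept within a narrow band, and untreated replicates 2 and 4 were again the lowest. S534A LPS differed from untreated livers by 0.21 ± 0.10 (SE) and WT LPS by 0.26 ± 0.10, and neither passed (limma, adjusted p = 0.136 and 0.0684).

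Pdia4 encodes ERp72, a disulphide isomerase. Its brighter probe set read 12.00, 11.94, 11.99 and 11.91 in S534A LPS livers, 11.92, 11.89, 12.04 and 12.13 in WT LPS livers, and 11.94, 11.18, 12.17 and 11.52 in WT untreated livers. Untreated replicates 2 and 4 lay below all LPS arrays, and replicate 3 above them. The dimmer probe set had untreated replicate 2 lowest, as the brighter one, but replicate 4, at 8.13, within the LPS range, so the probe sets differ there. The differences from untreated livers were 0.26 ± 0.16 (SE) for S534A LPS and 0.30 ± 0.16 for WT LPS and did not pass (limma, adjusted p = 0.286 and 0.223).

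Sdf2l1 encodes an ER protein that works with the co-chaperone ERdj3 to keep clients soluble. It measured 11.75, 11.50, 11.23 and 11.39 in S534A LPS livers, 11.67, 11.59, 11.70 and 11.75 in WT LPS livers, and 11.72, 10.73, 11.86 and 10.17 in WT untreated livers. The untreated values spanned 3.23-fold and the LPS groups lay inside that span. S534A LPS differed from untreated livers by 0.35 ± 0.29 (SE) and WT LPS by 0.55 ± 0.29, and neither passed (limma, adjusted p = 0.437 and 0.200).

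Creld2 encodes an ER protein with EGF-like domains that is induced by ER stress. It measured 11.84, 11.95, 11.58 and 11.74 in S534A LPS livers, 11.93, 11.86, 11.79 and 11.83 in WT LPS livers, and 11.41, 9.58, 11.88 and 9.93 in WT untreated livers. All 8 LPS arrays stood close together, untreated replicate 3 lay among them, replicate 1 just below, and untreated replicates 2 and 4 far below. The difference from untreated livers was 1.08 ± 0.39 (SE) for S534A LPS (limma, adjusted p = 0.0610) and 1.15 ± 0.39 for WT LPS (adjusted p = 0.0488). The WT LPS call passed in 2 of the 12 fits that each left out 1 array, those without WT untreated replicate 1 or 3, and had an adjusted p of up to 0.136 in the others.

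**Figure D3:**
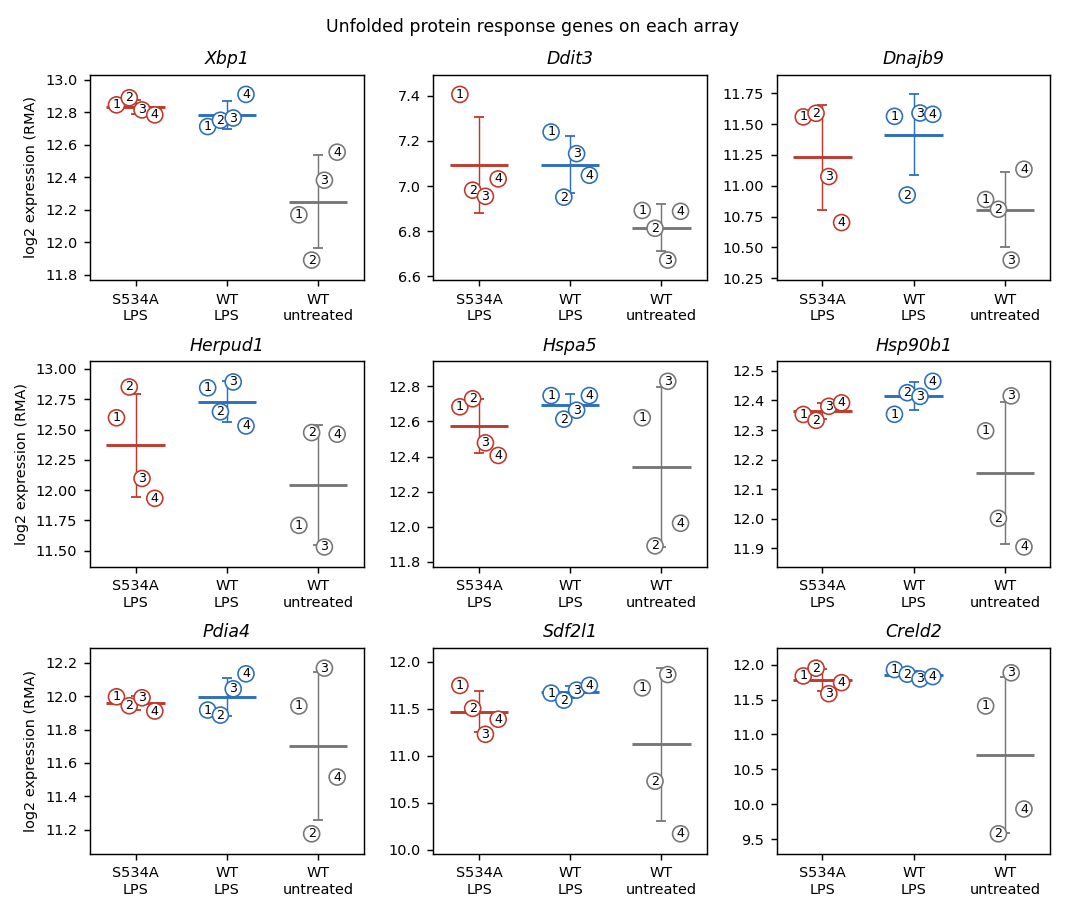
Log2 expression (y axis, its own range in each panel) of the 9 genes on each array of S534A LPS (red), WT LPS (blue) and WT untreated (grey) livers; numbered circles are the replicates, lines the group means and whiskers 1 SD, n = 4. Untreated replicates 2 and 4 sit far below replicates 1 and 3 for Hspa5, Hsp90b1, Pdia4, Sdf2l1 and Creld2, while Herpud1 runs the other way.

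Each of the 5 chaperone and folding genes had a smaller SD in S534A LPS and in WT LPS livers than in WT untreated livers, a difference that was not tested. In S534A LPS livers the SDs of Sdf2l1 (0.22), Hspa5 (0.16) and Creld2 (0.16) were larger than those of 95.9%, 87.8% and 87.4% of genes, and those of Pdia4 and Hsp90b1 than those of 11.9% and 4.0%. Dnajb9 and Herpud1, with SDs of 0.42 and 0.43, were above 99.4% of genes there. In WT LPS livers the SD of Creld2 was 0.06, above that of 12.3% of genes, while Sdf2l1 and Hspa5 stood at 16.2% and 16.3%, Hsp90b1 at 7.5% and Pdia4 at 40.4%. In WT untreated livers Creld2 had an SD of 1.12, larger than that of 99.9% of genes, and Sdf2l1 one of 0.81, larger than 99.6%. Hspa5 (0.46), Pdia4 (0.44) and Hsp90b1 (0.24) had an untreated SD above that of 97.8%, 97.6% and 84.4% of genes.

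The untreated arrays that were low in these 5 genes were those that were high in Dbp, a clock output gene: it measured 8.58, 8.91, 9.39 and 8.36 in S534A LPS livers, 8.80, 9.39, 9.47 and 9.47 in WT LPS livers, and 8.14, 11.19, 7.59 and 11.39 in WT untreated livers. Arntl, the clock activator whose transcript peaks in the opposite phase, measured 8.61, 7.93, 7.42 and 8.21 in S534A LPS livers, 8.83, 7.37, 7.52 and 7.44 in WT LPS livers, and 9.03, 6.29, 9.08 and 6.20 in WT untreated livers. In Arntl, Dbp and Ciart, a clock repressor gene, the LPS arrays lay between the untreated extremes. Cry1 lay below the untreated range and Nr1d1 above it on every LPS array. Neither followed the order of Dbp on the untreated arrays. Of 4 clock genes listed with Arntl, 1 was called higher and 1 lower in each LPS group against untreated livers. Of 10 listed with Dbp, S534A LPS called 1 higher and 3 lower and WT LPS 1 higher and 1 lower. Over all genes 26.9% and 25.0% were called. Nfil3, a clock gene also in the index used below, was above the untreated range on every LPS array, with a rise of 1.57 ± 0.31 (SE) in S534A LPS and 1.05 ± 0.31 in WT LPS livers (limma, adjusted p = 0.00222 and 0.0273). Herpud1 was high on the untreated arrays where the chaperones were low, and Xbp1, Ddit3 and Dnajb9 did not follow this order. The part of the clock state in the spread of the 5 genes was not tested beyond the fit with a clock index given below.

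Because the untreated arrays stand apart from each other, each difference was also taken with only some of them, a choice made after seeing the data. With only untreated replicates 1 and 3, WT LPS minus WT untreated was 0.21 for Creld2, -0.12 for Sdf2l1, -0.03 for Hspa5, -0.06 for Pdia4 and 0.06 for Hsp90b1. With only replicates 2 and 4 the same differences were 2.10, 1.23, 0.74, 0.65 and 0.46. Xbp1 moved little, at 0.51 and 0.56, whereas Herpud1 moved the other way, at 1.11 and 0.26. For S534A LPS minus WT untreated the Creld2 difference was 0.13 with replicates 1 and 3 and 2.02 with replicates 2 and 4, and that of Xbp1 0.56 and 0.61.

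A second view kept all 12 arrays and added an index of 14 clock genes as a covariate to the limma fit. WT LPS against WT untreated then called 6 of the 9 genes, all higher, with 27.3% of all genes called. These were Xbp1 (0.53, adjusted p = 0.00448), Creld2 (1.06, 0.000118), Hspa5 (0.32, 0.0137), Sdf2l1 (0.49, 0.00677), Herpud1 (0.72, 0.0154) and Hsp90b1 (0.24, 0.0136). S534A LPS against WT untreated called 2, Xbp1 and Creld2 (0.75, adjusted p = 0.00161), with 27.4% of all genes called, and S534A LPS against WT LPS called 0, with 0.246% of all genes called. The fit assumes 1 linear relation to the index in all groups; the index ran from -0.46 to 0.75 in S534A LPS livers, from -0.57 to 0.33 in WT LPS livers and from -2.18 to 1.30 in WT untreated livers.

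**Figure D4:**
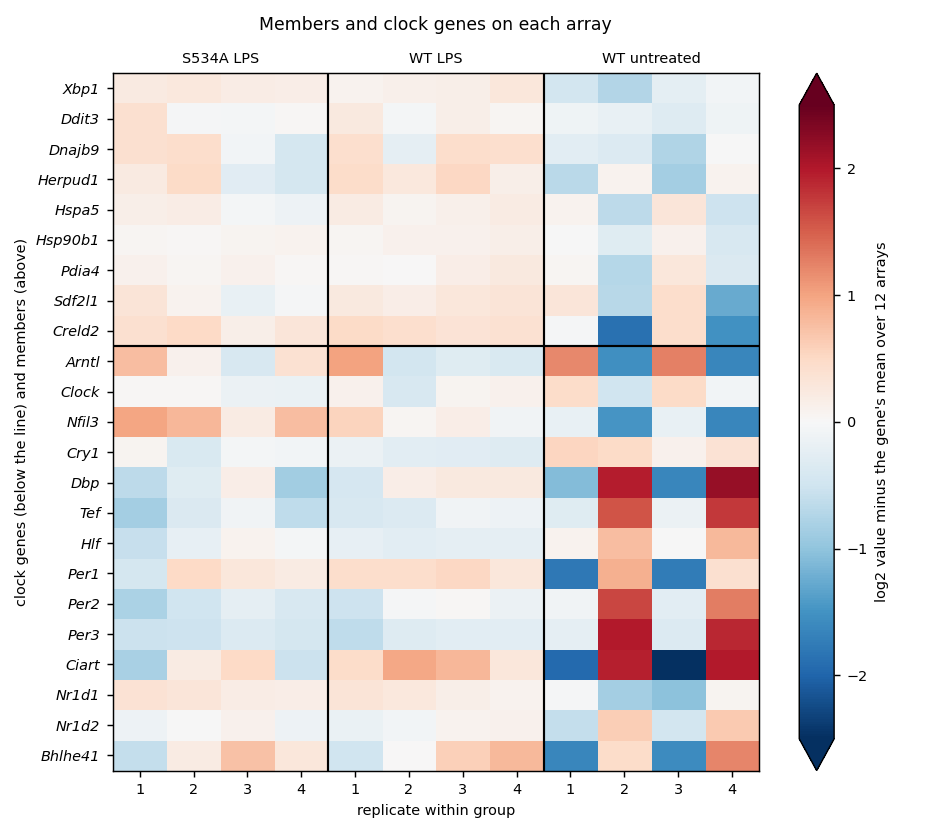
Log2 value minus the gene's mean over the 12 arrays (colour, red high and blue low) for the 9 genes, above the line, and 14 clock genes, below it, on the 4 arrays each of S534A LPS, WT LPS and WT untreated livers; values beyond 2.5 take the end colours. The untreated arrays alternate in Arntl and Dbp, and Creld2 and Sdf2l1 alternate on the same arrays.

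After the group means were subtracted, the 12 arrays ordered Creld2 much as they ordered Hspa5 (Pearson r = 0.964), Pdia4 (0.924), Hsp90b1 (0.905) and Sdf2l1 (0.890). Herpud1 was nearest to Dnajb9 (0.715) and ran against Hsp90b1 (-0.808). The genes outside the 9 that most resembled their mean were Stt3b (0.972), a catalytic subunit of N-glycosylation in the ER, Tmed3 (0.963), a cargo protein of ER to Golgi transport, Hspa13 (0.958), Plpp5 (0.957), Cdk2ap2 (0.957) and Tmem214 (0.953). Each of the 9 is itself part of that mean, so its own coefficient with the mean is partly built in. The mean followed Hspa5 (0.954), Creld2 (0.867), Pdia4 (0.843), Sdf2l1 (0.826) and Hsp90b1 (0.688) more than Xbp1 (0.344), Dnajb9 (0.226), Ddit3 (0.201) and Herpud1 (-0.270). This order did not hold over the 8 LPS arrays alone. There Hspa5 and Dnajb9 stood at 0.945 each, Herpud1 at 0.848, Sdf2l1 at 0.834, Creld2 at 0.658 and Ddit3 at 0.629. Xbp1 stood at 0.46, Pdia4 at 0.371 and Hsp90b1 at -0.477. On the same 8 arrays, which leave out the divided untreated livers, the 6 genes from Stt3b to Tmem214 had r between 0.857 and 0.974. Those 6 were chosen over 12 arrays that include these 8, so this range is no separate check. These coefficients are descriptions over arrays that share the group structure, the clock states and the normalisation.

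The wider pathway was described with 67 of 70 listed genes in 5 lists that do not hold the 9. S534A LPS against WT untreated livers called 8 of the 67 higher and 5 lower (19.4%, against 26.9% of all genes), and WT LPS called 10 higher and 4 lower (20.9%, against 25.0%); 12 genes were called in both, which share the untreated arrays. Of the 13 S534A LPS calls, 9 held without the 3 pancreas arrays and 13 with the clock index as a covariate. Of the 14 WT LPS calls, 6 and 14 did. With all arrays kept and the pancreas marker mean as a covariate, 10 of the 13 and 11 of the 14 held. All genes were then called at 23.2% and 21.1%. Lost with that covariate were Sec61a1, Kdelr1 and Ppp1r15b in S534A LPS and Hyou1, Kdelr1 and Slc7a11 in WT LPS livers. With untreated replicates 1 and 3 only, 8 of the 13 S534A LPS and 7 of the 14 WT LPS calls held, with 22.8% and 20.8% of all genes called. Lost there were Sec61a1, Ssr3, Sec24d and Kdelr1 in both, Ppp1r15b in S534A LPS and Hyou1, Syvn1 and Slc7a11 in WT LPS livers. With untreated replicates 2 and 4 only, 13 and 12 held, with 27.4% and 25.6% of all genes called, and Eif2ak3 and Atf3 were lost in WT LPS livers. In S534A LPS against WT LPS livers 0 of the 67 were called and 4 had an unadjusted p under 0.05 (limma; 5.76% of all genes), and the groups did not overlap for 3, Atf3, Slc7a11 and Trib3, against 4.43% of all genes.

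Of the 5 stress sensors, S534A LPS against untreated livers called 1 lower, with a median difference of 0.13, and WT LPS 1 higher and 1 lower, with a median of 0.12. Of all genes, 26.9% and 25.0% were called in these comparisons. Ern1, which encodes IRE1α, measured 9.30, 9.33, 9.37 and 9.50 in S534A LPS livers, 9.70, 9.40, 9.68 and 9.95 in WT LPS livers, and 10.14, 10.01, 10.05 and 10.32 in WT untreated livers. Its transcript was below the untreated range on every LPS array, opposite in direction to Xbp1. It fell by 0.76 ± 0.11 (SE) in S534A LPS and by 0.45 ± 0.11 in WT LPS livers (limma, adjusted p = 0.000154 and 0.00741). The WT LPS call was lost without the 3 arrays with pancreas transcripts (-0.30, limma, adjusted p = 0.0992) and held with the pancreas marker mean as a covariate. S534A LPS against WT LPS gave -0.31 ± 0.11 for Ern1, with an adjusted p of 0.514. Eif2ak3, which encodes PERK, was at 0.39 ± 0.19 in S534A LPS livers (limma, adjusted p = 0.169) and rose by 0.60 ± 0.19 in WT LPS livers (adjusted p = 0.0355), a call that held in 6 of 12 fits with 1 array left out.

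Of 15 further ER chaperones and folding enzymes, S534A LPS called 1 lower and WT LPS 1 higher and 1 lower, with medians of 0.07 and 0.11. Among all genes the shares called were 26.9% and 25.0%. Hyou1, which encodes an ER nucleotide exchange factor, measured 11.81, 11.74, 11.67 and 11.58 in S534A LPS livers, 11.75, 11.69, 11.81 and 11.78 in WT LPS livers, and 11.48, 10.47, 11.69 and 10.36 in WT untreated livers. As in Creld2, untreated replicates 2 and 4 were below replicates 1 and 3, and likewise in Dnajb11, at 10.12, 9.41, 10.22 and 9.33, and Manf, at 10.08, 9.35, 10.09 and 9.21. The Hyou1 rise of 0.76 ± 0.24 in WT LPS livers (limma, adjusted p = 0.0373) held in 3 of 12 fits with 1 array left out and was lost without the 3 pancreas arrays. Txndc5, a thioredoxin-domain protein of the ER, fell by 0.33 ± 0.06 in S534A LPS and by 0.28 ± 0.06 in WT LPS livers (adjusted p = 0.000891 and 0.0033), and the WT LPS call was lost without the 3 pancreas arrays. The genes of lowest p between S534A LPS and WT LPS livers in this list were Txndc11 (-0.21) and Pdia3 (-0.11), both at an adjusted p of 1.00.

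Of 12 genes of ER-associated degradation, 1 was called higher and 1 lower in each LPS group, with medians of -0.06 in S534A LPS and 0.00 in WT LPS livers. The shares of all genes called were 26.9% in S534A LPS and 25.0% in WT LPS livers. Syvn1, the ubiquitin ligase HRD1 at the centre of that pathway, measured 11.67, 11.66, 10.98 and 11.18 in S534A LPS livers, 11.67, 11.28, 11.25 and 11.22 in WT LPS livers, and 10.67, 10.08, 10.83 and 10.14 in WT untreated livers. It was above the untreated range on all LPS arrays, with a rise of 0.94 ± 0.20 (SE) in S534A LPS and 0.92 ± 0.20 in WT LPS livers (limma, adjusted p = 0.00304 and 0.00396). With untreated replicates 1 and 3 only, the differences were 0.62 in S534A LPS and 0.60 in WT LPS livers (limma, adjusted p = 0.0420 and 0.0506). Derl2, a membrane component of the retrotranslocation machinery, fell by 0.56 ± 0.09 in S534A LPS and by 0.42 ± 0.09 in WT LPS livers (adjusted p = 0.00056 and 0.00472), and its WT LPS call was lost without the 3 pancreas arrays. Derl2 (-0.13) and Selenos (-0.11) had the lowest p between S534A LPS and WT LPS livers, at an adjusted p of 1.00.

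Of 17 genes of translocation into the ER and export from it, each LPS group had 4 called higher and 1 lower, the same 5 genes, with medians of 0.11 in S534A LPS and 0.09 in WT LPS livers. That count is near the share of all genes called, 26.9% in S534A LPS and 25.0% in WT LPS livers. Of all genes, 11.0% and 9.34% were called higher. Srpr, the receptor for the signal recognition particle, rose by 0.42 ± 0.06 in S534A LPS and 0.45 ± 0.06 in WT LPS livers (limma, adjusted p = 0.000177 and 0.000132). Ssr3, a translocon-associated protein, rose by 0.37 ± 0.09 in S534A LPS and 0.41 ± 0.09 in WT LPS livers (adjusted p = 0.00667 and 0.00417). The translocon subunit Sec61a1 (0.26 in S534A LPS and 0.27 in WT LPS livers), the COPII coat gene Sec24d (0.53 and 0.48) and the retrieval receptor gene Kdelr1 (-0.24 in both) were called with adjusted p between 0.0238 and 0.0397. Each of those 3 lost its call in both comparisons without the 3 pancreas arrays, and held it in 3 to 9 of the 12 fits with 1 array left out. With the pancreas marker mean as a covariate Sec24d kept both calls, Sec61a1 its WT LPS call and Kdelr1 neither. Spcs3 and Sec31a had the lowest p between S534A LPS and WT LPS livers, with -0.09 and -0.08 at an adjusted p of 1.00.

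Of 18 genes downstream of PERK and ATF4, S534A LPS called 3 higher and 1 lower and WT LPS 3 higher and none lower, with medians of 0.13 and 0.06. Again, 26.9% and 25.0% of all genes were called. Atf3, a stress-induced transcription factor that Toll-like receptor signalling also induces, measured 9.61, 9.71, 9.63 and 9.94 in S534A LPS livers, 9.25, 8.84, 8.42 and 8.96 in WT LPS livers, and 7.54, 8.72, 6.74 and 7.27 in WT untreated livers. Its rise was 2.15 ± 0.32 in S534A LPS and 1.30 ± 0.32 (SE) in WT LPS livers (limma, adjusted p = 0.000242 and 0.00969). WT LPS and untreated livers overlapped through untreated replicate 2. All S534A LPS arrays were above all WT LPS arrays, but that difference of 0.86 ± 0.32 did not pass (adjusted p = 0.619). Nupr1, a stress-induced chromatin protein gene, rose by 0.73 in S534A LPS and 0.72 in WT LPS livers (adjusted p = 0.000705 and 0.00101). Slc7a11, which encodes the cystine transporter subunit, rose by 0.49 in S534A LPS and 0.26 in WT LPS livers (adjusted p = 0.000826 and 0.0399). The WT LPS call was lost without the 3 pancreas arrays and held in 4 of 12 fits with 1 array left out, and the gene differed by 0.23 between S534A LPS and WT LPS livers (adjusted p = 0.640). Ppp1r15b, a subunit of the eIF2α phosphatase, fell by 0.41 ± 0.13 in S534A LPS livers (adjusted p = 0.0317), a call lost without the 3 pancreas arrays and held in 7 of 12 fits with 1 array left out, and was at -0.27 in WT LPS livers (adjusted p = 0.144).

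**Figure D5:**
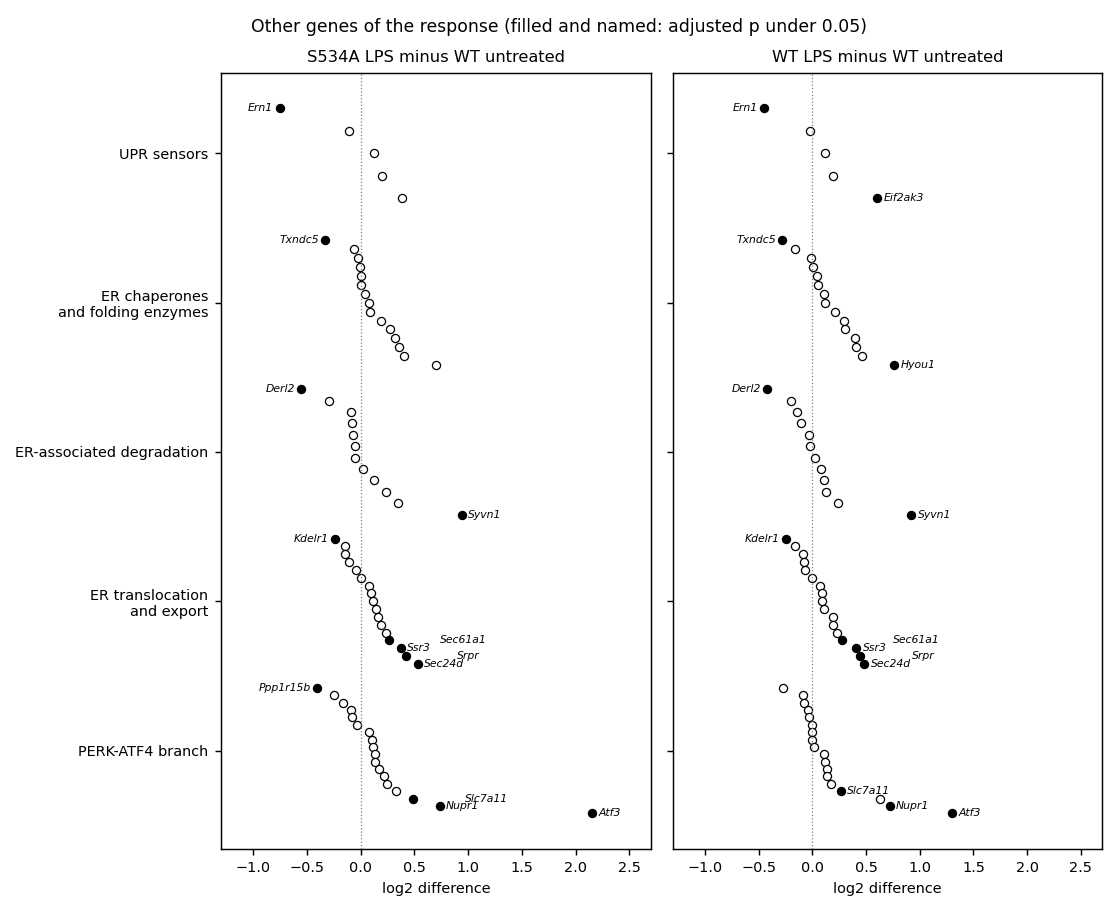
Log2 differences (x axis) of 67 further genes in 5 lists, 1 point a gene, for S534A LPS minus WT untreated (left) and WT LPS minus WT untreated livers (right); filled and named points have an adjusted p under 0.05. Most points lie near 0, with Atf3, Syvn1 and Nupr1 furthest to the right among those called in both and Ern1 and Derl2 to the left.

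Markers of other cell types were also followed. Against untreated livers 26.9% of all genes were called in S534A LPS and 25.0% in WT LPS livers. Of these, 11.0% and 9.34% of all genes were called higher. Between S534A LPS and WT LPS livers 0.171% were called. Of 12 neutrophil markers, led in range by Mmp8 and Retnlg, 10 were called higher in each LPS group against untreated livers and 2 in S534A LPS against WT LPS livers, with list means of 6.97 to 7.26 in S534A LPS, 6.58 to 6.88 in WT LPS and 5.45 to 5.59 in WT untreated livers. Of 8 sinusoidal endothelial markers, led by Kdr and Lyve1, S534A LPS called 1 higher and 6 lower and WT LPS 1 higher and 5 lower; of 10 Kupffer cell markers, led by Vsig4 and Marco, 1 higher and 5 lower, and 1 higher and 4 lower. Of 7 stellate cell markers, led by Lrat and Pdgfrb, 3 were called lower in each LPS group, and of 12 hepatocyte markers, led by G6pc and Pck1, 2 higher and 2 lower in each. Of 7 B and plasma cell markers, cells rich in ER, 1 was called lower in each LPS group, and the list mean kept between 6.01 and 6.44; Derl3, its gene of widest range before Jchain, is also on the degradation list. No pancreas marker was called in any comparison. In bulk liver, a change in the share of a cell type and a change in RNA per cell cannot be told apart, and the part of these shifts in the Xbp1 and Creld2 differences was not tested.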

How the data were processed

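RNA of 12 mouse livers was measured on Affymetrix GeneChip arrays labelled with whole-transcript kits, per the labels' protocols. The authors deposited log2 values made by RMA, per the submitters' processing notes, which give no version; RMA corrects background, makes the arrays' distributions alike and summarises probes. The sources used here name no genome build. Values ran from 3.43 to 14.48, with array medians of 6.15 to 6.32; arrays have no read depth, and 4 arrays a group limit the precision.

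Of 35556 probe sets, 21789 had 1 gene symbol, 1621 several and 12146 none. For the 999 genes with several probe sets the brightest over the 12 arrays was used, which left 19938 genes. Group differences were fitted in R 4.3.3 by limma 3.58.1, using lmFit and eBayes over the 12 arrays (9 residual and 3.54 prior degrees of freedom), two-sided, with Benjamini-Hochberg adjustment over all genes and a call at an adjusted p under 0.05. The fit was tested on simulated data. Means carry SDs and differences SEs. Lists were the 9 genes, 5 further lists of the response, 2 of clock genes (one index), 7 of cell types and 1 of heat shock genes outside the ER. Named genes were the 9 and the called genes of each further list, up to 6 by p. Where fewer than 2 were called, the 2 of lowest p were named. Also named were the 2 widest-ranging markers of each cell type, Rela and the 6 genes most like the mean of the 9. Trib3, Dnajb11, Manf, Cry1, Nr1d1, Hsp90aa1, Hspa8, Hspb1, Dnajb1 and Hspd1 were added after their values were seen. The members and lists were chosen with earlier results of these data known. Array pairs of a group correlated at 0.983 to 0.996 and none shared more than 0.0422% of values.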

Additional observations from a re-analysis of the deposited data

Results flagged for a closer look

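Among 27 sets of 4 values, the 9 genes in each of the 3 groups, 1 held an array far from the others. Dnajb9, the ERdj4 co-chaperone gene, measured 10.93 on WT LPS replicate 2 and 11.56, 11.58 and 11.59 on the other WT LPS arrays, a gap of 0.96 of the group's range which is past Dixon's 95% critical value for 4 values. Chance alone gives such a gap in about 1 in 20 sets. WT LPS replicate 2 was also the lowest WT LPS array for Hspa5, Ddit3, Sdf2l1 and Pdia4, but not for Xbp1, Creld2, Herpud1 and Hsp90b1. Outside the 9 it was the lowest for Eif2ak3, at 8.45 against 8.97 to 9.20. It was also lowest in the mean of the 15 further ER chaperones and folding enzymes, at 10.73 against 10.91 to 10.96. This array was 1 of the 3 with pancreas transcripts, and the part of those transcripts in the Dnajb9 value was not tested.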

How the results depend on the processing

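Of the 9 genes, 0 were called in S534A LPS against WT LPS livers, also in all other settings run, 1 in S534A LPS against WT untreated and 2 in WT LPS against WT untreated livers. For WT LPS the count was 1 without the 3 arrays with pancreas transcripts and with median centring, 4 with the pancreas marker mean as a covariate and with array weights, 5 with quantile normalisation repeated, and 6 with the clock index as a covariate, with a filter on dim genes (9969 genes tested) and with untreated replicates 2 and 4 only; with each array left out it ran from 1 to 5, with 5 without WT untreated replicate 3 and 1 without S534A LPS replicate 3 or WT LPS replicate 1, 3 or 4. For S534A LPS it was 2 with the pancreas covariate, the clock covariate and untreated replicates 1 and 3 only, 3 with the dim filter and array weights, and 6 with untreated replicates 2 and 4 only; with each array left out it ran from 1 to 4, with 4 without WT untreated replicate 3 and 2 without WT untreated replicate 1. Over these settings 0.00502% to 2.39% of all genes (the highest with array weights) were called in S534A LPS against WT LPS livers, and 22.6% to 46.5% of all genes were called in S534A LPS and 16.2% to 44.4% in WT LPS livers against untreated ones. Apart from the filter, which tests fewer genes, the cause was not tested. The dim filter moved the median of all genes by -0.105. Replicate numbers did not pair the samples (correlations of same-numbered deviations from -0.268 to 0.215), and with them as a replicate block the counts were 0, 2 and 2 in the order above. The differences of Hspa5, Sdf2l1 and Pdia4 turned negative against untreated replicates 1 and 3 only, that of Herpud1 in S534A LPS livers was -0.10 against replicates 2 and 4 only, and that of Sdf2l1 in S534A LPS livers was -0.02 with array weights. Between S534A LPS and WT LPS livers Ddit3 turned positive in 8 settings and Pdia4 in 1, by at most 0.05.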

Other observations

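Heat shock genes that answer misfolding outside the ER, in the cytosol or in mitochondria, were listed beside the ER genes, and 8 of 10 were measured. Hspa1a, an inducible cytosolic Hsp70, measured 7.87, 8.26, 8.23 and 8.15 in S534A LPS livers, 8.05, 7.55, 8.27 and 8.21 in WT LPS livers, and 6.77, 7.30, 6.98 and 7.03 in WT untreated livers. It rose by 1.11 ± 0.16 (SE) in S534A LPS and by 1.00 ± 0.16 in WT LPS livers (limma, adjusted p = 0.000146 and 0.000422), and its near copy Hspa1b had no probe set of its own among those used, so the copies are not told apart. Hsph1, a cytosolic Hsp110 co-chaperone, measured 8.49, 8.46, 8.38 and 8.21 in S534A LPS livers, 8.92, 9.08, 9.08 and 9.21 in WT LPS livers, and 9.37, 8.76, 9.03 and 8.76 in WT untreated livers. Every S534A LPS array was below every array of the other groups, with a difference of -0.69 ± 0.12 from WT LPS (adjusted p = 0.0585) and a fall of 0.59 ± 0.12 against WT untreated livers (adjusted p = 0.00310). Hspe1, whose product is mitochondrial, was also lower in S534A LPS than in WT untreated livers (-0.32 ± 0.10, limma, adjusted p = 0.0292). Hsp90aa1, a cytosolic Hsp90 gene, measured 11.17, 10.33, 11.16 and 10.27 in WT untreated livers. Replicates 2 and 4 were thus its lowest, as in Creld2 and the other ER chaperone genes described above. Hsph1 had the same 2 replicates lowest, while Hspe1, Hspa8 and Hspb1 did not. Other genes of the list ran the opposite way, with replicates 2 and 4 highest. These were Hspa1a, Dnajb1, at 7.75, 8.10, 7.81 and 8.47, and Hspd1, at 11.57, 11.76, 11.47 and 11.80. The list had 1 gene called higher and 2 lower in S534A LPS against WT untreated, 1 higher in WT LPS against WT untreated and 0 in S534A LPS against WT LPS livers, where 1 had an unadjusted p under 0.05. Of all genes, 26.9%, 25.0% and 0.171% were called in the same order. In the last comparison 5.76% of all genes had an unadjusted p under 0.05 (limma).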
